A study of Mus musculus with 4 samples.

Results

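The 10 genes described here encode the Toll-like receptors Tlr1, Tlr2, Tlr4, Tlr6, Tlr7, Tlr9 and Tlr13, the co-receptor Cd14, and the adaptors Myd88 and Ticam1. They were chosen by symbol, not by a rule on their values, though with earlier results of these data known. Each matched 1 of the 54532 genes in the deposited count table. The RNA came from bone marrow neutrophils of mice labelled WT, sequenced in 4 libraries. The controls, DMSO 1 and DMSO 2, had received DMSO, a solvent. The treated samples, Aβ40 1 and Aβ40 2, had received amyloid-beta 40 (Aβ40), a peptide that is the main component of amyloid in vessel walls. The dose was 20 µg/ml and the time 4 h. The sources used here do not give strain, sex, age, the purity of the cells or the time in DMSO. Nothing in the labels says whether the samples of a group were separate mice or cultures, so the p-values measure spread among these samples alone, and that spread may be technical. The study asked how Aβ40 brings neutrophils to form extracellular traps.

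Toll-like receptors are membrane proteins that bind microbial molecules and some molecules of the body itself. Those at the cell surface mainly bind bacterial lipids and lipoproteins, and those in endosomes bind nucleic acids. Most of them signal through the adaptor MyD88 and the IRAK kinases to NF-kB, while Tlr4 can also use TRIF, the product of Ticam1, to reach interferon genes. Neutrophils use these receptors to sense bacteria and to prolong their own survival.

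Total counts ran from 17212264 to 19524125 per library. All 15 neutrophil markers, such as S100a8, Ly6g and Mpo, had reads in every library. Their summed level was 104717 CPM (read counts relative to library size, after TMM scaling for differences in composition) in DMSO 2 and from 142630 to 150172 CPM in the other 3 libraries. Of the single markers, 8 of 15 were lowest in DMSO 2 and 3, Csf3r, Mmp9 and Cxcr2, were highest there. Between groups, 2 of the 15 had both Aβ40 libraries above both DMSO libraries, against 23.2% of all tested genes. For 5 of the 15 they were below, against 21.9% of all tested genes. Markers of other marrow cells were also present, with larger sums in Aβ40. The 10 B cell markers, 5 of them called higher, summed to between 525 and 613 CPM with DMSO and to between 1167 and 1172 CPM with Aβ40, and the 8 eosinophil markers, 1 of them called higher, to between 1365 and 1623 against between 3566 and 3611 CPM. Ranges were 2688 to 2770 against 3131 to 3675 CPM for 11 monocyte and macrophage markers, 582 to 640 against 859 to 988 CPM for 9 dendritic cell markers, and 63.8 to 67.2 against 99.7 to 104.8 CPM for 10 T and NK cell markers, of which 1, Gzmb, was called higher. The monocyte and macrophage sum was carried by Ly6c2, at 1871 and 1718 CPM with DMSO and at 2615 and 2233 CPM with Aβ40. The other 10 of those markers summed to 899.9 and 970.3 CPM with DMSO and to 1059.8 and 898.1 CPM with Aβ40, which overlap. Csf1r and Cx3cr1 had both Aβ40 values below both DMSO values. None of these markers was at 0 in all 4 libraries. In a bulk sample, fewer cells of a type and less RNA per cell cannot be told apart.

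Cd14 and Tlr2 had the highest levels of the 10 genes when counts were related to gene length. In FPKM (fragments per gene length and library size, as the authors deposited them), means over the 4 libraries were 227 ± 21.7 for Cd14 and 129.9 ± 13.8 for Tlr2 (SD, n = 4). Next came Myd88 at 64.7 ± 5.41 and Tlr13 at 43.9 ± 4.23 FPKM (SD, n = 4). The other 6 genes were much lower. Tlr7 stood at 10.3 ± 2.69 FPKM, Tlr6 at 7.27 ± 1.16 FPKM, Tlr4 at 6.91 ± 1.77 FPKM and Ticam1 at 2.80 ± 0.733 FPKM (SD, n = 4). Tlr1 at 1.30 ± 0.471 FPKM and Tlr9 at 0.767 ± 0.562 FPKM (SD, n = 4) closed the order. Neighbours in this order had separate ranges over the 4 libraries in 6 of 9 cases. The exceptions were Tlr7 with Tlr6, Tlr6 with Tlr4, and Tlr1 with Tlr9, whose ranges overlapped.

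**Figure D1:**
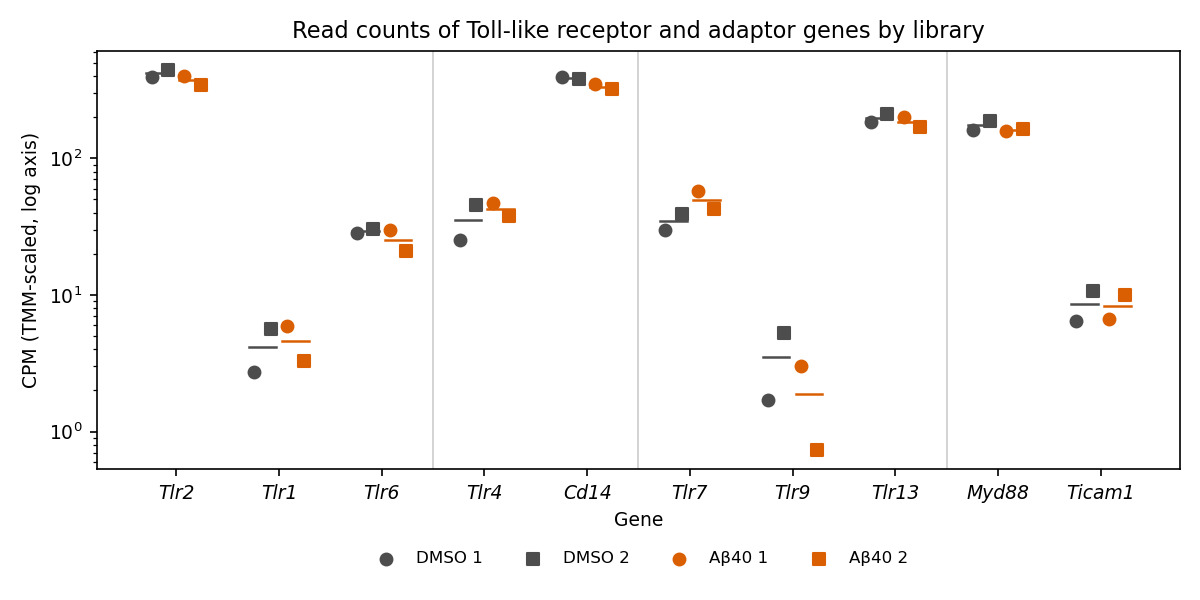
Level of each gene in each library, in CPM on a log axis, with DMSO in grey, Aβ40 in orange, and short lines at the group means. From left to right the blocks separated by grey lines hold the Tlr2 group, Tlr4 with its co-receptor, the endosomal receptors and the adaptors. Tlr7 is the gene whose Aβ40 points both lie above the DMSO points, and Cd14 the gene whose Aβ40 points both lie below.

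None of the 10 genes passed the test between Aβ40 and DMSO, and 8 of the 10 had overlapping groups. All 10 passed the filter on low counts. At an adjusted p under 0.05 the edgeR quasi-likelihood test called 0 of 10 genes in either direction, against 0.126% of the 13479 genes tested (17 higher and 0 lower). At an unadjusted p under 0.05 it gave 1 of 10, Tlr7, against 12.2% of all tested genes. By direction this was 1 higher, against 6.51%, and 0 lower, against 5.72%. DESeq2, limma-voom and edgeR's likelihood ratio test also called 0 of 10. Adjusted p-values of the 10 genes ran from 0.397 to 0.968 (edgeR quasi-likelihood, Benjamini-Hochberg). Log2 fold changes, Aβ40 minus DMSO, were negative for 7 genes and positive for 3, with a median of -0.10 beside 0.01 over all tested genes. Without DMSO 2 the median was 0.06, with 4 of 10 negative. The groups did not overlap for 2 of 10 genes, against 45.1% of all tested genes. These were 1 gene with higher values in Aβ40 (Tlr7; 23.2% of all tested genes) and 1 with lower values (Cd14; 21.9%).

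**Figure D2:**
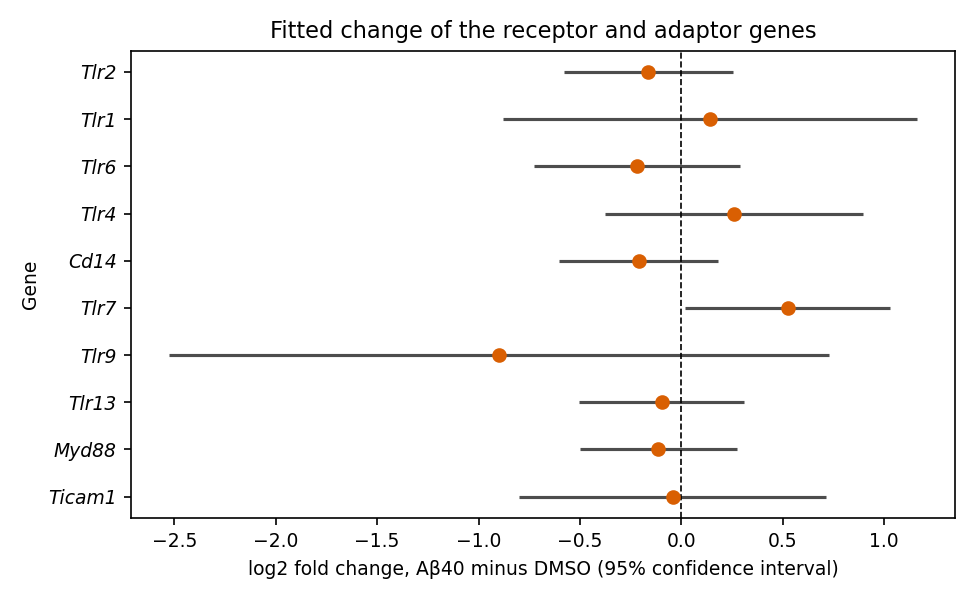
Log2 fold change of each gene, Aβ40 minus DMSO, on the horizontal axis, with lines for the 95% confidence interval from the edgeR quasi-likelihood fit. The interval of Tlr7 starts at 0.02 and the other 9 intervals include 0, the widest being that of Tlr9, from -2.53 to 0.73.

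Among the surface receptors, Tlr2, which recognises bacterial lipoproteins, was the most abundant and differed little between groups. Tlr2 (ENSMUSG00000027995, mm10 chromosome 3, 83836272 to 83841767) was at 391 CPM in DMSO 1 and 444 CPM in DMSO 2, and at 401 CPM in Aβ40 1 and 344 CPM in Aβ40 2. The groups overlapped, with Aβ40 2 lowest and DMSO 2 highest. Its log2 fold change was -0.16 (SE 0.18), and the 95% interval of the fold ran from 0.669 to 1.19 (edgeR quasi-likelihood, Benjamini-Hochberg adjusted p = 0.750). The mean was 417 ± 37.6 CPM in the DMSO pair and 373 ± 40.4 CPM in the Aβ40 pair (SD, n = 2 each).

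Tlr1 and Tlr6 are the partners with which Tlr2 forms dimers, Tlr1 for triacylated and Tlr6 for diacylated lipopeptides. In FPKM, Tlr2 exceeded Tlr6 by between 16.7 and 20.4 times and Tlr1 by between 75.4 and 158.7 times over the 4 libraries. Tlr6 (ENSMUSG00000051498, chromosome 5, 64952031 to 64960097) was at 28.5 and 30.3 CPM with DMSO and at 29.7 and 20.9 CPM with Aβ40. Here 3 libraries lay close together and Aβ40 2 stood below them, and the log2 fold change was -0.22 (SE 0.22). Tlr1 (ENSMUSG00000044827, chromosome 5, 64924679 to 64933563) was at 2.73 and 5.59 CPM in DMSO 1 and DMSO 2, and at 5.91 and 3.30 CPM in Aβ40 1 and Aβ40 2. DMSO 2 and Aβ40 1 were thus high and the other libraries low, across the groups, and the log2 fold change of 0.14 (SE 0.45) was smaller than the gap within either group. It turned negative without DMSO 1 (-0.29) or without Aβ40 1 (-0.34).

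The genes of Tlr1 and Tlr6 lie near each other on the minus strand of chromosome 5 and share part of their coding sequence, so reads from that part fit both. Of the 50-base windows of the longest Tlr1 transcript in GENCODE M21, 15.3% also occur in Tlr6 transcripts. Of those of the longest Tlr6 transcript, 12.6% occur in another gene, nearly all of them in Tlr1. The longest identical run holds 229 bases inside the single coding exon of each gene. It is shown here in capitals with 20 flanking bases in lower case, read 5′ to 3′ on the coding strand (mm10, chr5:64925517-64925785 for Tlr1 and chr5:64953808-64954076 for Tlr6).

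Tlr1: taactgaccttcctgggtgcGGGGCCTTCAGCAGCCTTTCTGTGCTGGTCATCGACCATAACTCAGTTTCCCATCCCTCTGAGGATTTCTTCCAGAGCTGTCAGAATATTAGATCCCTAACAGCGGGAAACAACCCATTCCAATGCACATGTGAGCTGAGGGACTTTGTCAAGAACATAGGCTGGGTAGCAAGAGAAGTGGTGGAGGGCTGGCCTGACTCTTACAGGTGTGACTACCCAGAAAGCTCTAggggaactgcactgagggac

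Tlr6: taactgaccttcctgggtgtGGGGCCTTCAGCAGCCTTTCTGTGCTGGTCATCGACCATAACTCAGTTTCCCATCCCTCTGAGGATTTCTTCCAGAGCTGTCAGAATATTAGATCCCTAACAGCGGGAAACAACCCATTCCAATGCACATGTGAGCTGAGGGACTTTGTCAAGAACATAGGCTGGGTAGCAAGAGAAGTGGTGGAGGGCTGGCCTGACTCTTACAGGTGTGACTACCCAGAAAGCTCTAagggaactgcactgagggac

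Counted from 1 at the 5′ end of the printed stretch, the first differing bases on either side of the run are C20T and G250A, with the base of Tlr1 first. The sources used here do not say how the counting treated reads that fit both genes, so the levels of Tlr1 and Tlr6 are uncertain by the share of such reads. Of the other 8 genes, 7 shared no 50-base window with another gene's transcript.

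Cd14, which hands lipopolysaccharide to the Tlr4 complex, was slightly lower in both Aβ40 libraries without passing the test. Cd14 (ENSMUSG00000051439, chromosome 18, 36725074 to 36726736) was at 390.2 and 383 CPM with DMSO and at 349 and 319 CPM with Aβ40. The groups did not overlap, though the gap between them was small. The fold was 0.864 with a 95% interval from 0.659 to 1.13, and the adjusted p was 0.648 (edgeR quasi-likelihood, Benjamini-Hochberg). Tlr4, the receptor for lipopolysaccharide (ENSMUSG00000039005, chromosome 4, 66827584 to 66930284), was at 25.0 and 45.5 CPM in DMSO 1 and DMSO 2, and at 46.9 and 37.6 CPM in Aβ40 1 and Aβ40 2. DMSO 1 was therefore the single low library. The log2 fold change was 0.26 (SE 0.28). Without DMSO 2 it was 0.75 and passed the test (edgeR quasi-likelihood, Benjamini-Hochberg adjusted p = 0.0171), and without DMSO 1 it was -0.11. Leaving out DMSO 2 raised the calls over all genes from 17 to 1061, and leaving out DMSO 1 raised them to 1093. The FPKM of Cd14 exceeded that of Tlr4 by between 26.3 and 55.1 times over the 4 libraries, with DMSO 1 highest.

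Tlr7, an endosomal receptor for single-stranded RNA, had the largest positive fold change of the 10 genes, which did not pass the test. Tlr7 (ENSMUSG00000044583, chromosome X, 167304929 to 167330558) was at 30.0 and 39.4 CPM in DMSO 1 and DMSO 2, and at 57.4 and 42.4 CPM in Aβ40 1 and Aβ40 2. Both Aβ40 libraries were above both DMSO libraries, with 42.4 and 39.4 CPM as the nearest values. The mean was 34.7 ± 6.61 CPM in the DMSO pair and 49.9 ± 10.6 CPM in the Aβ40 pair (SD, n = 2 each), a fold of 1.44 with a 95% interval from 1.01 to 2.04. Its unadjusted p was 0.0441 and its adjusted p 0.397 (edgeR quasi-likelihood, Benjamini-Hochberg). Without DMSO 2 the log2 fold change was 0.72 and passed the test, in a fit that called many more genes over all than the full fit. Without Aβ40 1 it was 0.29. Tlr7 is also a gene of B cells, dendritic cells and monocytes. Both Aβ40 values exceeded both DMSO values for 23.2% of all tested genes. They did so for 10 of 10 B cell, 6 of 9 dendritic cell and 5 of 11 monocyte and macrophage markers. They lay below both for 21.9% of all tested genes and for 0, 0 and 2 of these markers. The part of these cells in the values of Tlr7 was not tested.

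Tlr9, the endosomal receptor for DNA with unmethylated CpG, was scarce and varied more between libraries of a group than between groups. Tlr9 (ENSMUSG00000045322, chromosome 9, 106222598 to 106226883) had 32 and 98 reads in DMSO 1 and DMSO 2, and 52 and 14 reads in Aβ40 1 and Aβ40 2. These correspond to 1.72, 5.27, 3.04 and 0.732 CPM. The 95% Poisson interval was 1.17 to 2.42 CPM in DMSO 1 and 4.28 to 6.42 CPM in DMSO 2, and these intervals, which cover counting error only, did not meet. The same held for Aβ40 1 (2.27 to 3.99 CPM) and Aβ40 2 (0.400 to 1.23 CPM). The log2 fold change of -0.90 had an SE of 0.72 (adjusted p = 0.637, edgeR quasi-likelihood, Benjamini-Hochberg). It was 0.11 without DMSO 2 and -2.24 without Aβ40 1.

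Tlr13, a mouse receptor for a sequence of bacterial ribosomal RNA, was the most abundant endosomal receptor, between 3.29 and 5.78 times Tlr7 in FPKM. Tlr13 (ENSMUSG00000033777, chromosome X, 106143204 to 106160493) was at 183 and 212 CPM with DMSO and at 199 and 169.9 CPM with Aβ40. The values of the groups interleaved, and the log2 fold change was -0.10 (SE 0.18), which turned to 0.003 without DMSO 2. The fold had a 95% interval from 0.705 to 1.24.

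The adaptor Myd88 exceeded Ticam1 by between 19.1 and 28.9 times in FPKM, and neither differed between groups beyond the spread of the libraries. Myd88 (ENSMUSG00000032508, chromosome 9, 119335934 to 119341411) was at 161 and 188 CPM with DMSO and at 159 and 164 CPM with Aβ40. DMSO 2 was the highest library, and the other 3 lay within a few CPM of each other. The log2 fold change was -0.11 (SE 0.17), and the fold had a 95% interval from 0.706 to 1.21. Of its exon bases, 11.3% overlap those of Acaa1a, a peroxisomal thiolase gene on the opposite strand, whose counts were 2315 and 2213 with DMSO and 1154 and 1674 with Aβ40. The sources used here do not say whether the counting used strand, and without strand the reads of the overlap cannot be told apart.

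Ticam1 (ENSMUSG00000047123, chromosome 17, 56269319 to 56276786) was at 6.49 and 10.7 CPM in DMSO 1 and DMSO 2, and at 6.67 and 9.99 CPM in Aβ40 1 and Aβ40 2. Each group held 1 low and 1 high library, and the log2 fold change was -0.04 (SE 0.33). It ran from -0.38 to 0.36 when each library was left out in turn.

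The libraries of a group often lay further apart than the groups. The gap between DMSO 1 and DMSO 2 on the log2 scale was wider than the size of the fitted fold change for 7 of the 10 genes, against 56.4% of tested genes with reads in every library. For the gap between Aβ40 1 and Aβ40 2 the count was also 7 of 10, against 46.0%. DMSO 2 held the highest value for 6 of the 10 genes and the lowest for 0, where it held the highest for 27.5% and the lowest for 28.9% of all tested genes. Aβ40 2 held the lowest value for 5 and the highest for 0, against 17.7% and 19% of all tested genes. The neutrophil marker sum was also lowest in DMSO 2, where 8 of its 15 markers were lowest and 3 were highest. Much of the sum is S100a9, the most abundant of them. It was at 44610.5 and 27538.9 CPM in DMSO 1 and DMSO 2, and at 48045.7 and 45638.9 CPM in Aβ40 1 and Aβ40 2. The part of these markers in the values of the 10 genes was not tested.

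**Figure D3:**
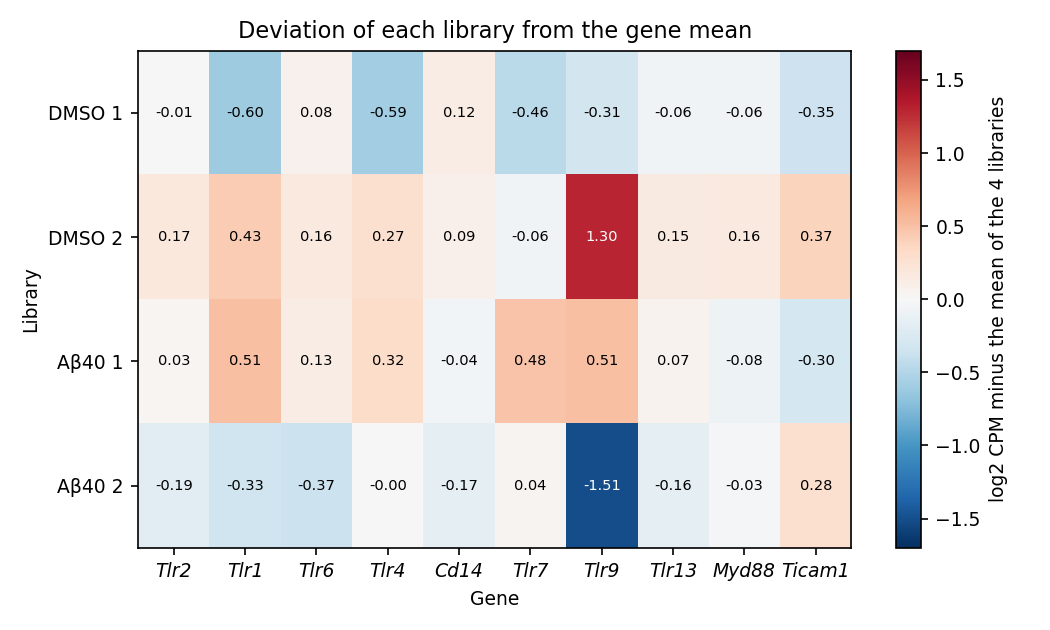
Deviation of each library (rows) from the mean of the 4 libraries for each gene (columns), in log2 CPM, from blue for below to red for above the mean. The widest departures are those of Tlr9, at 1.30 in DMSO 2 and -1.51 in Aβ40 2, and DMSO 1 and DMSO 2 differ in sign for 7 of 10 genes.

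Toll-like receptors outside the 10 were at most 3.76 CPM in any library. Tlr3, for double-stranded RNA, was at 1.61 and 1.88 CPM with DMSO and 1.75 and 2.04 CPM with Aβ40. Tlr5, for flagellin, was at 3.11 and 3.76 CPM with DMSO and 3.39 and 1.78 CPM with Aβ40. Tlr8 and Tlr12 were at no more than 2.14 CPM in any library, and Tlr11 had 1, 0, 7 and 0 reads and was not tested. A count of 0 in DMSO 2 allows up to 0.161 CPM and a count of 0 in Aβ40 2 up to 0.157 CPM, for counting error only. Of the 4 tested genes 0 were called, with log2 fold changes from -0.41 for Tlr5 to 0.88 (SE 0.72) for Tlr8. Their median was 0.46, and it was 0.10 without DMSO 1 and 0.11 without Aβ40 2.

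Among 9 co-receptors and chaperones of the receptors, 0 were called in either direction, and Ly96 and Ly86 had the widest differences, of opposite sign. Ly96, which encodes MD-2, the protein of the Tlr4 complex that binds lipopolysaccharide, was at 27.7 and 24.0 CPM with DMSO and at 18.1 and 15.5 CPM with Aβ40. Both Aβ40 libraries were below both DMSO libraries, with a log2 fold change of -0.62 (SE 0.21; adjusted p = 0.334, edgeR quasi-likelihood, Benjamini-Hochberg). The log2 fold change of Ly96 was -0.73 without DMSO 2. Ly86, which encodes MD-1, the partner of the receptor homologue CD180 on B cells and macrophages, was at 47.8 and 42.5 CPM with DMSO and at 84.8 and 67.5 CPM with Aβ40. Both Aβ40 libraries were above both DMSO libraries here, with a log2 fold change of 0.75 (SE 0.19; adjusted p = 0.252). By edgeR's likelihood ratio test Ly86 was called higher (adjusted p = 0.0429), where that test called 221 genes over all, against 17 in the main fit. Ly86 was also called higher without DMSO 1 or without DMSO 2. Those fits leave 1 DMSO library and likewise called many more genes over all. Cd180 itself was at 7.50 and 18.7 CPM with DMSO and at 19.0 and 12.1 CPM with Aβ40, so its groups overlapped. Its log2 fold change was 1.04 without DMSO 2. Unc93b1, which carries Tlr7, Tlr9 and Tlr13 to endosomes, was at -0.03 (SE 0.22) on the log2 scale, and Hsp90b1, the chaperone gp96 that folds most of the receptors, at 0.33 (SE 0.21). Without DMSO 1 the log2 fold change of Hsp90b1 was 0.59. All 10 B cell markers and 5 of the 11 monocyte and macrophage markers had both Aβ40 libraries above both DMSO libraries, as Ly86 did. Over all tested genes the share was 23.2%. Of the 11, Csf1r and Cx3cr1 had both Aβ40 libraries below both DMSO libraries and 4 overlapped. The part of these cells in the values of Ly86 was not tested.

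Of 4 other adaptors, 3 were tested and 0 were called. Tirap, the bridge between MyD88 and the receptors Tlr2 and Tlr4, was at 38.7 and 49.4 CPM with DMSO and at 41.4 and 37.3 CPM with Aβ40. Ticam2, which links Tlr4 to TRIF, had both Aβ40 libraries (4.80 and 5.28 CPM) above both DMSO libraries (3.38 and 4.36 CPM), with a log2 fold change of 0.38 (SE 0.34). Pik3ap1, an adaptor to phosphoinositide 3-kinase, was at 13.7 and 32.2 CPM with DMSO and at 21.4 and 13.3 CPM with Aβ40. The log2 fold change of Pik3ap1 was -0.89 without DMSO 1 and 0.33 without DMSO 2. Sarm1 had at most 2 reads in a library and was not tested.

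Signalling genes below the receptors had mostly negative log2 fold changes, none of which passed the test. The 21 tested genes encode kinases, proteins that bind them, ubiquitin enzymes and interferon regulatory factors. Of them 0 were called, 17 had a negative log2 fold change and the median was -0.21, beside 0.01 over all tested genes. Without DMSO 2 there were 13 negative and the median was -0.11. Both Aβ40 libraries lay below both DMSO libraries for 11 of the 21, where 21.9% of all tested genes did. They lay above for 1 of the 21, where 23.2% of all tested genes did. At an unadjusted p under 0.05 there were 5 of the 21, against 12.2% of all tested genes. Irak4, the kinase that MyD88 recruits first, was at 56.8 and 54.5 CPM with DMSO and at 33.9 and 40.5 CPM with Aβ40, a log2 fold change of -0.58 (SE 0.18). Irak1, its substrate, was at 42.6 and 53.8 CPM with DMSO and at 34.0 and 33.5 CPM with Aβ40. Irak2, a related member of the same complex, was at 125 and 142 CPM with DMSO and at 83.1 and 90.2 CPM with Aβ40, a log2 fold change of -0.63 (SE 0.17; adjusted p = 0.267, edgeR quasi-likelihood, Benjamini-Hochberg). In these 3 kinase genes the groups did not overlap.

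Traf6, the ubiquitin ligase that the IRAK kinases activate, was by contrast at 49.8 and 54.8 CPM with DMSO and at 52.6 and 49.5 CPM with Aβ40, with overlapping groups. On the branch to interferon genes, Traf3 was at 78.4 and 58.3 CPM with DMSO and at 39.8 and 51.3 CPM with Aβ40, and the kinase gene Ikbke at 310 and 226 CPM with DMSO and at 158 and 192 CPM with Aβ40. Their log2 fold changes were -0.58 (SE 0.21) and -0.62 (SE 0.21). Tbk1, the kinase related to Ikbke, was at -0.22 (SE 0.16), and Irf7, a factor that Tlr7 and Tlr9 activate, at -0.07 (SE 0.19). The log2 fold changes of Irak1, Irak2, Irak4, Traf3 and Ikbke stayed negative without any single library. Without DMSO 2 the edgeR quasi-likelihood test called Irak2, Irak4, Traf3 and Ikbke lower, and without DMSO 1 it called Irak1 and Irak2 lower. Each of these fits leaves 1 DMSO library, so its spread comes from the Aβ40 pair alone. Over all genes such fits called many more genes than the full fit. Whether these calls are particular to the pathway was not tested.

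**Figure D4:**
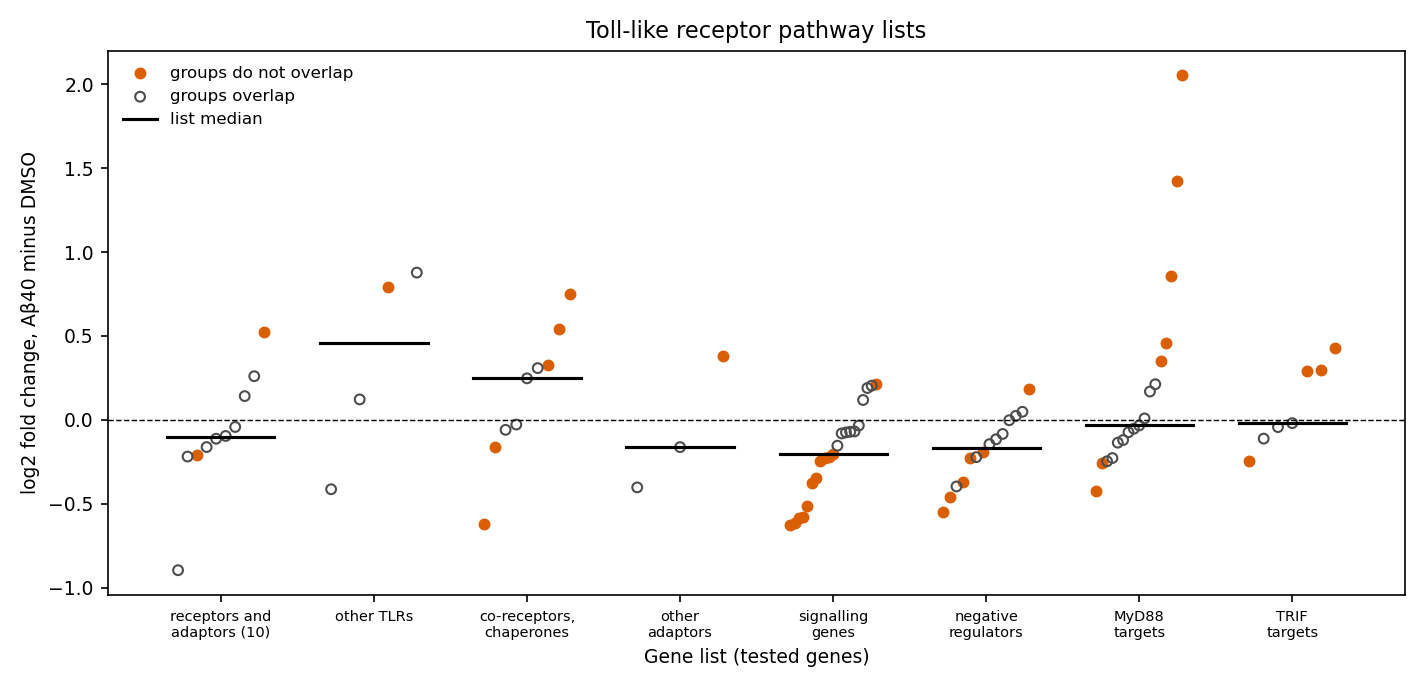
Log2 fold change, Aβ40 minus DMSO, of each tested gene in the lists around the receptors, ordered by value within a list. Filled orange points are genes whose groups do not overlap, open points are genes whose groups overlap, and black lines are list medians, which run from -0.21 for signalling genes to 0.46 for the other Toll-like receptors.

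Negative regulators of the pathway gave 0 calls among 14 tested genes, with 11 negative log2 fold changes and a median of -0.17. The median was -0.03 with 8 negative without DMSO 2, and -0.32 without DMSO 1. Over all tested genes 48.9% had a negative log2 fold change. Both Aβ40 libraries lay below both DMSO libraries for 5 of the 14, where 21.9% of all tested genes did. They lay above for 1 of the 14, where 23.2% of all tested genes did. Tnip1, which restrains NF-kB together with A20, was at 189 and 184 CPM with DMSO and at 120.4 and 135 CPM with Aβ40. Its groups did not overlap, and its log2 fold change was -0.55 (SE 0.17; adjusted p = 0.324, edgeR quasi-likelihood, Benjamini-Hochberg). Tnip1 was also called lower without DMSO 1 or without DMSO 2, in fits that leave 1 DMSO library and called many more genes over all. Rnf216, a ubiquitin ligase, was at -0.46 (SE 0.19). Tnfaip3, the gene of A20, was at 130.4 and 159.8 CPM with DMSO and at 143 and 119 CPM with Aβ40, and Irak3, the inhibitory member of the IRAK family, at 116 and 187 CPM with DMSO and at 144 and 136 CPM with Aβ40. Both overlapped between groups. Nfkbia, an NF-kB inhibitor and first of the 14 by FPKM, was at 367 and 451 CPM with DMSO and at 427 and 389 CPM with Aβ40, and Ptpn6, a phosphatase, was at 0.02 (SE 0.18) on the log2 scale.

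Target genes of the MyD88 and TRIF branches showed no common direction. Of 17 tested MyD88 and NF-kB targets 0 were called, with 8 positive and 9 negative log2 fold changes and a median of -0.03. The median was 0.07 without DMSO 1, 0.10 without Aβ40 2 and -0.18 without Aβ40 1. Among the abundant messengers, Il1b was at 1578 and 1337 CPM with DMSO and at 1551 and 1218 CPM with Aβ40, and Cxcl2 at 335 and 357 CPM against 349 and 288 CPM, with overlapping groups. Nfkbiz, which encodes an NF-kB cofactor, was at 258 and 222 CPM with DMSO and at 189.5 and 168 CPM with Aβ40, without overlap (log2 fold change -0.43; adjusted p = 0.389, edgeR quasi-likelihood, Benjamini-Hochberg). Ccl3, a chemokine gene, was at 0.01 (SE 0.18) and Tnf at -0.23 (SE 0.19) on the log2 scale. Both Aβ40 values exceeded both DMSO values for 5 of the 17 (29.4%, against 23.2% of all tested genes) and lay below both for 2 (11.8%, against 21.9%). The 5 were Il6, Il1a, Cxcl1, Il10 and Cd40, and the 2 were Nfkbiz and Nfkbid. Il6 was at 30.2 and 21.2 CPM with DMSO and at 52.9 and 40.5 CPM with Aβ40, a log2 fold change of 0.86 (SE 0.24; adjusted p = 0.276, edgeR quasi-likelihood, Benjamini-Hochberg). Il1a was at 1.23 and 3.71 CPM with DMSO and at 7.96 and 5.33 CPM with Aβ40, and Cxcl1, a chemokine that draws neutrophils, had 3 and 12 reads with DMSO and 32 and 29 reads with Aβ40. The log2 fold change of Il6 was 1.13 without DMSO 1. Those of Il1a and Cxcl1 were 2.41 and 3.33 without DMSO 2, where DMSO 1, with few reads of both, was the only control. With no filter on low counts the edgeR quasi-likelihood test called Il6, Il1a and Ly86 higher. That setting called 255 genes over all, against 17 with the filter.

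Of 7 tested TRIF and interferon targets 0 were called, 3 had a positive and 4 a negative log2 fold change, and the median was -0.02. Leaving out DMSO 1 gave a median of 0.27, and leaving out Aβ40 1 gave -0.08. Both Aβ40 values exceeded both DMSO values for 3 of the 7 (42.9%, against 23.2% of all tested genes), Ccl5 and Ifit2 among them. They lay below both for 1 (14.3%, against 21.9%). Ccl5 was at 45.5 and 44.8 CPM with DMSO and at 59.1 and 62.6 CPM with Aβ40, a log2 fold change of 0.43 (SE 0.17; adjusted p = 0.372, edgeR quasi-likelihood, Benjamini-Hochberg). Ccl5 is also a gene of T and NK cells. Of their 9 tested markers 8 had both Aβ40 libraries above both DMSO libraries, where 23.2% of all tested genes did, and 1 was called. The most abundant, Nkg7, overlapped (40.6 and 38.8 CPM with DMSO, 40.1 and 49.6 CPM with Aβ40). Their part in the values of Ccl5 was not tested. Cxcl10 was at 607 and 697 CPM with DMSO and at 695 and 592 CPM with Aβ40. Ifit1, Ifit2 and Isg15, interferon-induced genes, were at -0.04 (SE 0.21), 0.29 (SE 0.19) and -0.11 (SE 0.24) on the log2 scale.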

How the data were processed

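RNA sequencing libraries of bone marrow neutrophils were compared between Aβ40 (n = 2) and DMSO (n = 2). The authors deposited raw read counts and FPKM per gene. Tools named in the submitters' processing notes, with no order, are featureCounts 1.5.0-p3 and HISAT2 2.0.5, on the build mm10. Whether counting used strand, and which annotation release, is not given in the sources used here. The deposited FPKM equalled the count over gene length and over a size proportional to the DESeq2 size factor, within 0.1% for every value above 0, so they hold a composition correction. Gene coordinates are those of the count table. Transcript windows and exon overlaps come from GENCODE M21 (GRCm38, the same assembly as mm10).

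Counts were tested over all genes with edgeR 4.0.16 in R 4.3.3, with filterByExpr (13479 genes), TMM scaling, the quasi-likelihood test (2-sided) and Benjamini-Hochberg adjustment. Calls needed an adjusted p under 0.05. The fit had 2 residual degrees of freedom and 6.88 prior ones. A single read was worth 0.0523 to 0.0585 CPM. The test was also tried on simulated data, whose outcome is not given here, and no statement rests on that trial. Alternatives used DESeq2 1.42.0, limma 3.58.1, other scalings and filters, a replicate block, FPKM, and each library left out.

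The 10 genes, the lists and the tests were chosen with earlier results of these data known. By rule, the genes named per list were any called gene, the 2 with the highest mean FPKM and the 2 with the largest absolute log2 fold change, plus every other receptor and adaptor and the 3 genes nearest in pattern to the member with the widest range. Cd180, Irak1, Irak4, Traf6, Traf3, Irak3, Tnfaip3, Tnf, Cxcl2, Il6, Cxcl10, Nfkbiz, Nfkbid, Il10, Cd40, Acaa1a and the single cell type markers were named after their values were seen.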

Additional observations from a re-analysis of the deposited data

How the results depend on the processing

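The 10 genes gave 0 calls under 16 of the 17 alternatives and 2 calls, Tlr4 and Tlr7, without DMSO 2, so leaving out a library gave 0 to 2. Their median log2 fold change ran from -0.25 to 0.06 over the libraries left out. Over all genes, the count of called genes (17, all higher) was 138 with DESeq2 (104 higher, 34 lower), 221 with edgeR's likelihood ratio test (160 higher, 61 lower), 255 with no filter (185 higher, 70 lower), 25 with library size alone (24 higher, 1 lower) and 0 with limma on log2(FPKM + 1) or log2(FPKM + 0.1), on the same genes or on all genes above 0. Leaving out a library gave 0 to 1093 called genes, 0 to 705 higher and 0 to 479 lower, with the lone library of a group assumed to vary like the other group. With the replicate block 27 genes were called, all higher, and 0 of the 10. The labels do not say that the numbers pair samples, and the deviations of same-numbered libraries correlated at -0.17. With the numbers crossed, an alternative added after seeing the data, 721 genes were called (445 higher, 276 lower), and 0 of the 10. That setting also called 4 of 21 signalling genes and 1 of 14 negative regulators lower. It called 2 of 17 MyD88 targets and 1 of 9 co-receptors and chaperones higher. The block with the numbers as given called 0 genes of these lists.

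Of 170 values of the 10 genes, 7 turned sign, each with a library left out. Ranges over the libraries left out were -0.34 to 0.74 for Tlr1, -0.11 to 0.75 for Tlr4, -2.24 to 0.11 for Tlr9, -0.21 to 0.003 for Tlr13 and -0.38 to 0.36 for Ticam1. Of 646 values of the other named genes, 37 turned sign and 21 passed the threshold. Their ranges were -0.00905 to 0.23 for Tlr3, -0.30 to 0.29 for Unc93b1, -0.33 to 0.0149 for Tirap, -0.89 to 0.33 for Pik3ap1, -0.25 to 0.13 for Irf7, -0.14 to 0.15 for Nfkbia, -0.0657 to 0.11 for Ptpn6, -0.26 to 0.0725 for Il1b, -0.12 to 0.11 for Ccl3, -0.24 to 0.17 for Ifit1, -0.43 to 0.29 for Isg15, -0.27 to 1.04 for Cd180, -0.10 to 0.0273 for Traf6, -0.42 to 0.26 for Irak3, -0.44 to 0.0118 for Tnf and -0.14 to 0.0739 for Cxcl10. Signs also turned near 0 for Unc93b1 (0.0018 with limma-voom, 0.0014 with the replicate block), Nfkbia (0.017 with upper-quartile scaling, 0.0036 with limma-voom, 0.0028 with protein-coding genes only, 0.0033 with the replicate block), Ptpn6 (-0.022 with library size alone), Cxcl10 (0.00067 with upper-quartile scaling) and Ccl3 (-0.0015 with median-ratio scaling and with DESeq2, -0.042 with library size alone, -0.0099 with limma on FPKM in all 3 forms). The cause was not tested. Counts of Tlr1, Tlr9 and Ticam1, at most 199 reads in a library, limit what can be seen of them.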

Other observations

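Tlr9 had the widest range of the 10 genes over the 4 libraries, 2.80 on the log2 scale. Among 7546 other tested protein-coding genes averaging 10 CPM or more, those nearest to it by root mean square difference of centred log2 CPM over the 4 libraries were Ciz1 (0.505), Ntng2 (0.592) and Cmip (0.593). Ciz1 encodes a nuclear zinc finger protein, and its values lay above its mean in DMSO 2 (0.73) and Aβ40 1 (0.43) and below it in DMSO 1 (-0.47) and Aβ40 2 (-0.69). In Aβ40 1, Ntng2 (-0.20) and Cmip (-0.01) lay below their means, where Tlr9 lay above its mean (0.51). These genes were picked for nearness, so their likeness to Tlr9 is no test of a link.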
